A study of Mus musculus with 12 samples.

Results

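Interferon-stimulated genes and the guanylate-binding proteins formed a set of 34 genes in cultured mouse neural progenitor cells (NPCs), chosen by name as classical interferon targets with results of these arrays already known, among them that Gbp4 was low on the arrays labelled Srf. Of the 34 genes, 32 were represented by a named probe, out of 21154 genes with a named probe on the array. No probe was matched to Mx1 or Mx2, which are not analysed here. The 32 genes carried 40 probes, 1 each for 24 genes and 2 each for 8 genes, and each gene is described by its brighter probe unless stated.

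NPCs were derived in vitro from the mouse embryonic stem cell line EB5 and kept as an adherent line with EGF and bFGF, as NSEB5-2C or as its derivative N31, which also carries doxycycline-inducible reprogramming factors (Oct4, Klf4, c-Myc and Sox2) and rtTA. The labels do not say which of these lines was used for an array, and both go back to 1 line. Cells received a retrovirus and were selected with puromycin, in 6 groups of 2 arrays each: EGFP (the control), Mkl1 or Srf open reading frames, a hairpin against EGFP (shEGFP, the control), and 2 different hairpins against Actb (shActb_1 and shActb_2). Mkl1 is an actin-regulated cofactor of the transcription factor Srf, and Actb encodes beta-actin, so the design asks what follows when this pathway is driven by its factors or by loss of beta-actin. The study calls the duplicates technical for its Actb knockdown arrays, and nothing says that the 2 arrays of any other group came from separate cultures, so the p-values measure the spread between these arrays, which is or may be technical.

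Interferons are secreted proteins that act through cell surface receptors, the kinases Jak1 and Tyk2, and transcription factors that include Stat2 and Irf9, which together switch on a large set of target genes. Type I interferons act mainly through the interferon-stimulated response element (ISRE), and interferon gamma through the gamma-activated site (GAS). The targets include cytosolic sensors of viral RNA, proteins that block viral translation or entry, GTPases that attack the vacuoles of intracellular pathogens, and the machinery that loads peptides onto MHC class I. Unstimulated cells keep many of these genes at a low basal level through the same factors.

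The level of a probe was its log2 processed signal less the 75th percentile of that array, so levels of different probes cannot be set against each other. A probe was tested in a comparison when the scanner called it well above background on both arrays of at least 1 of the groups compared. A gene "changed" when its difference exceeded 2-fold with an adjusted p (limma, Benjamini-Hochberg) under 0.05, and a gene "was lower" or "was higher" when the adjusted p alone was under 0.05. Of the 32 genes, 28 were well above background on all 12 arrays. The exceptions were Oas1a (6 arrays) and Oas2 (3 arrays), which make the 2-5A that activates RNase L, Oasl1 (11 arrays) and Tap1 (11 arrays). The arrays had 59.3 to 72.4% of probes well above background and no saturated spot, and both extremes belonged to the shActb_2 pair (replicate 2 and replicate 1). Of 14 NPC markers, 11 were well above background on all 12 arrays, among them Nes, Sox2 and Vim. The Olig2 marker was above background on 1 array. Actb fell with both hairpins, by 0.53 ± 0.05 (SE) with shActb_1 and by 0.65 ± 0.05 with shActb_2 on the log2 scale (limma adjusted p = 0.00128 and 0.000196, n = 2 arrays per group). Neither Mkl1 probe passed the test on the Mkl1 arrays (0.17 ± 0.11 and 0.20 ± 0.08, limma adjusted p = 0.312 and 0.12). Both Srf probes were lower, not higher, on the arrays labelled Srf (-1.40 ± 0.13 and -2.46 ± 0.06), and where these probes lie relative to the transgene is not known here. EGFP, Mkl1 and Srf arrays shared 1 slide, shEGFP and shActb_1 shared another, and shActb_2 had a slide of its own, so shActb_2 against either other hairpin group, and shEGFP against EGFP, cannot be told apart from the slide. On the first slide both EGFP arrays lay in row 2 and the Mkl1 and Srf arrays in row 1. Mkl1 and Srf against EGFP therefore cannot be told apart from the row on the slide.

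Promoters of the set were searched for the ISRE and the GAS, and stretches of some that hold an ISRE core are shown first. RefSeq promoter windows of GRCm38.p6, from 250 bases before to 50 bases after each start, were at hand for 26 of the 34 genes. The ISRE core, searched on both strands as GAAA, any 2 bases and GAAA (TTTC, any 2 bases and TTTC where it lies on the other strand), was present in 3.44% of all 32851 windows and in those of 16 of the 26 genes: B2m, Bst2, Ddx58, Gbp2, Gbp3, Gbp7, Ifih1, Ifit1, Ifit3, Ifitm3, Igtp, Irgm1, Isg15, Oas1a, Rsad2 and Stat2. The GAS, searched as TTCNNNGAA, which reads the same on both strands, was present in 8.3% of all windows and in those of 8 genes: Bst2, Gbp7, Ifit2, Ifitm3, Igtp, Irf1, Oas1a and Psmb8. The 2 motifs overlapped in Bst2 and Ifitm3. The CArG box, the site bound by Srf, was searched after the data had been seen and was found in 1.63% of all windows and in 0 of the 26 genes. With so low a share over all windows, 0 of 26 cannot show an absence, and nothing is read from it. A match is a match of letters only. Stretches of 100 bases that end at the base before the start are given 5′ to 3′ on the gene's strand for 7 genes of the set with a core there, with every ISRE core that lies wholly within the stretch in capitals:
Isg15 (chr4:156200819-156200918, minus strand): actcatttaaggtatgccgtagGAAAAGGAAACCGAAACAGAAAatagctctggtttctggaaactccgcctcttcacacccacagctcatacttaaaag
Ifit1 (chr19:34640789-34640888, plus strand): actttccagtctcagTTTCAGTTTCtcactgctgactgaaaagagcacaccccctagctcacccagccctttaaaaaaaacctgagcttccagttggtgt
Gbp2 (chr3:142620563-142620662, plus strand): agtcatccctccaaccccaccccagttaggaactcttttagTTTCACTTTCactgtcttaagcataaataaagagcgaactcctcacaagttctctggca
Gbp3 (chr3:142559944-142560043, plus strand): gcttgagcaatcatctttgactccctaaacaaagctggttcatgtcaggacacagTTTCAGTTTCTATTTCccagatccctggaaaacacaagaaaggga
Gbp7 (chr3:142530236-142530335, plus strand): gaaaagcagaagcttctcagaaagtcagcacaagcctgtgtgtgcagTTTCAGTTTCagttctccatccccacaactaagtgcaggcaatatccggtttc
Igtp (chr11:58199456-58199555, plus strand): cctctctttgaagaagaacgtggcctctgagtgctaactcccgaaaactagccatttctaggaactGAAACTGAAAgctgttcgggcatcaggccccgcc
Irgm1 (chr11:48871421-48871520, minus strand): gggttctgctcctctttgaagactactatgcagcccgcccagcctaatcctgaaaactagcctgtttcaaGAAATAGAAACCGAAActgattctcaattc
Gbp2, Gbp3 and Gbp7 lay together on chromosome 3 and each had the core within these 100 bases. The other core of Ifit1 begins before its stretch. Isg15 carried overlapping copies, which run together as one long stretch of capitals.

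On the arrays labelled Srf, most of the set was lower than on the EGFP arrays. The rule that chose the set used this contrast, so its values are a description. As part of that description, 8 of the 32 genes, Gbp4 among them, lay past both limits of a change, all downward, where 2.25% of all 35531 probes tested did so downward and 5.54% in either direction, and nothing is read from this count. The median difference of the 32 genes was -0.59 on the log2 scale, from -2.87 to 0.86, and 29 were below 0, beside a median of -0.01 and 50.9% below 0 over the 15671 named genes tested.

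Gbp4, a member of the interferon-induced guanylate-binding GTPases, showed the largest difference. Its levels were -1.76 and -1.85 on the EGFP arrays and -4.49 and -4.85 on the arrays labelled Srf, a 7.29-fold lower signal (-2.87 ± 0.14). It stayed well above background on all 12 arrays, and over 21 alternatives its difference lay between -3.04 and -1.67. The guanylate-binding proteins Gbp2 (3.81 and 4.01 against 2.59 and 2.53), Gbp7 (0.13 and 0.33 against -0.86 and -0.73) and Gbp3 (2.65 and 2.42 against 1.64 and 1.56) were lower by 1.35, 1.03 and 0.94 on the log2 scale. The array pairs of these 4 genes did not overlap. The brighter probe of Gbp6 was nearly level, with a difference of -0.10 ± 0.26, whereas its other probe read -0.86 ± 0.16. Gbp6 and Gbp10 are near-identical, and the probes may not separate them.

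Among the antiviral effectors, Ifit1, which binds viral RNA that lacks a proper cap, had levels of -1.81 and -2.40 with EGFP and -3.62 and -3.67 on the arrays labelled Srf (-1.54 ± 0.21). Isg15, a ubiquitin-like protein that is joined to other proteins, had levels of 3.95 and 3.78 against 2.64 and 2.52 (-1.28 ± 0.08), and its other probe differed by -1.39. Oasl2, an OAS-like protein, had levels of 0.62 and 0.90 against -0.51 and -0.64 (-1.34 ± 0.09). In all 3 genes both arrays labelled Srf lay below both EGFP arrays. Ifi44 (-0.11 and -0.43 against -1.43 and -1.71), an antiviral cytosolic protein, and the sensor Dhx58 (-1.20 and -1.32 against -2.49 and -2.39), a regulator of the RNA sensors Ddx58 and Ifih1, completed the 8 genes (-1.30 ± 0.17 and -1.18 ± 0.11). Oasl1 read lower too (-1.09 ± 0.36), as did Ifit3 (-0.34 ± 0.10) and Bst2 (-0.33 ± 0.06). Ifit2, an Ifit1 relative, Rsad2, which makes a chain-terminating nucleotide, and Ifitm3, which blocks viral entry, differed by 0.06, -0.09 and 0.15.

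The RNA sensors Ddx58 and Ifih1 differed by -0.39 ± 0.07 and -0.47 ± 0.13. The signalling genes all read lower on the arrays labelled Srf, by -0.25 to -0.87. Stat2 went from 2.31 and 2.06 to 1.40 and 1.23, and Usp18, which restrains the receptor, from -0.80 and -0.93 to -1.60 and -1.84. Irf7, the amplifier of type I interferon production, differed by -0.72 ± 0.17, Irf1 by -0.57 ± 0.07 and Irf9 by -0.25 ± 0.07. The immunity-related GTPases Igtp, Irgm1 and Iigp1 differed by -0.62, -0.48 and -0.71. In the antigen presentation group the immunoproteasome subunit Psmb9 differed by -0.67 ± 0.11, while its partner Psmb8 differed by -0.04 ± 0.19. B2m, the light chain of MHC class I, differed by -0.23 ± 0.06 and the peptide transporter Tap1 by -0.25 ± 0.23.

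**Figure D1:**
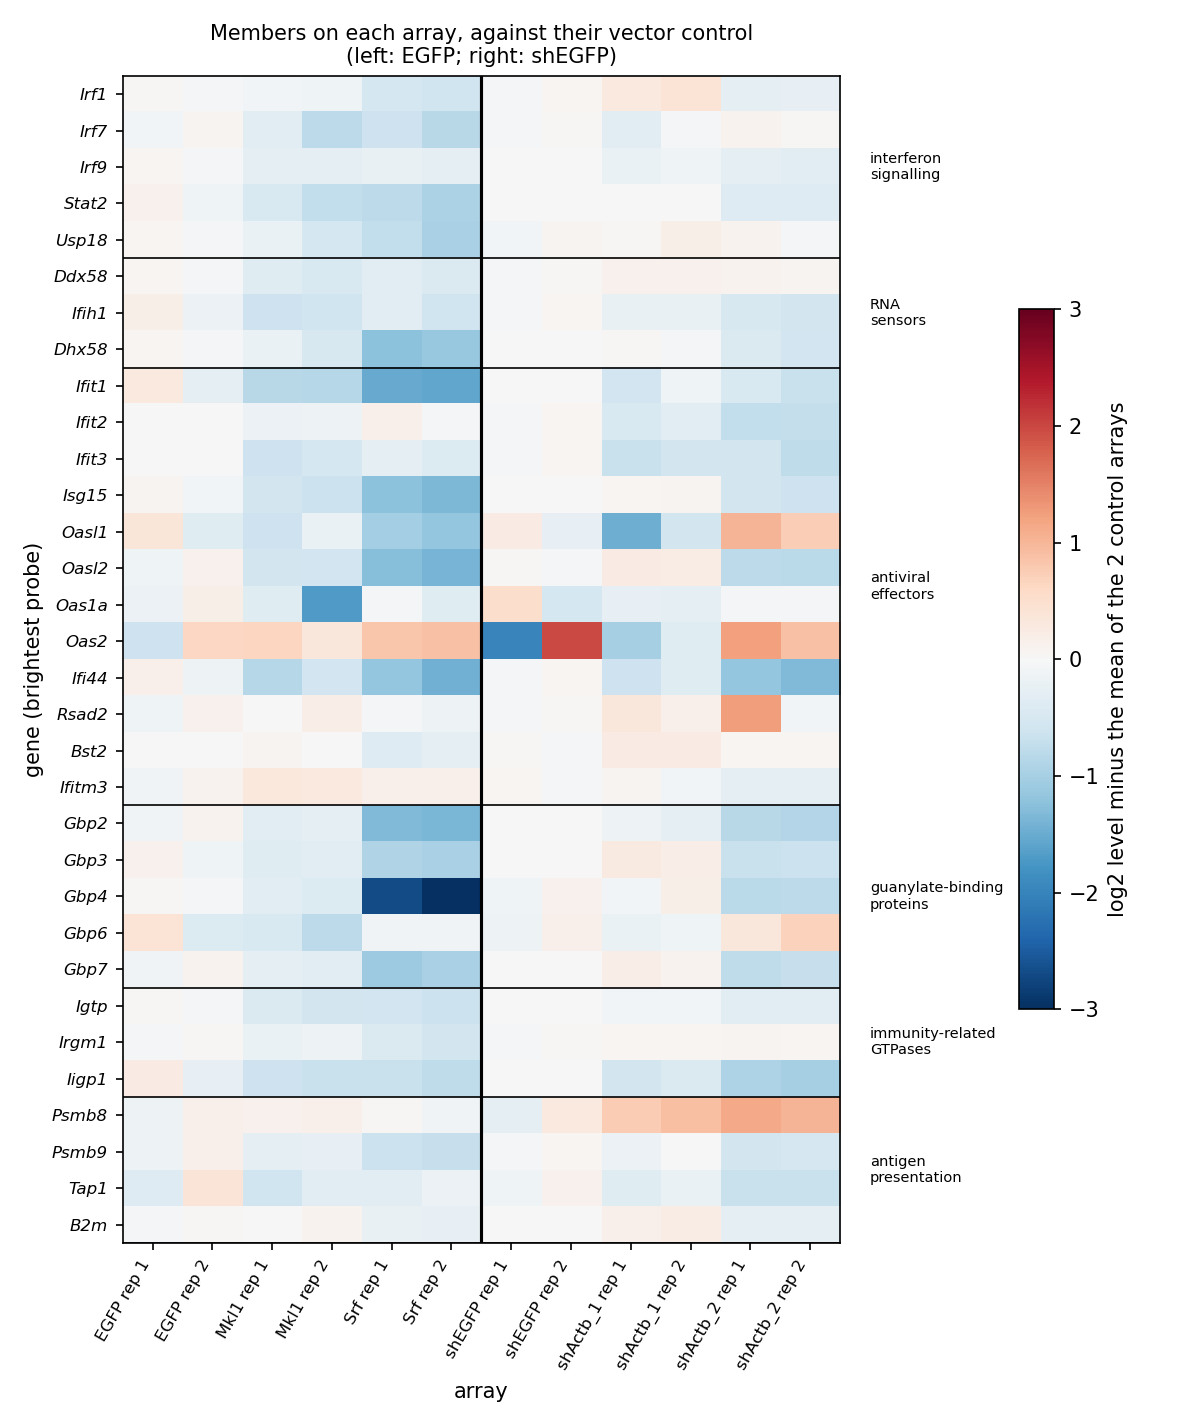
Colour gives the log2 level of each of the 32 genes (rows, grouped by role) on each of the 12 arrays (columns), less the mean of the 2 control arrays of its vector (EGFP on the left, shEGFP on the right). Blue is lower than the control. The darkest cells are Gbp4 on the arrays labelled Srf (-4.49 and -4.85 as levels), and by the mean of their 2 arrays 22 of the 32 genes lay below shEGFP with shActb_2 and 19 with shActb_1, with a median of -0.35 against -0.05. The strong colours of Oas2 come from a probe that was above background on 3 arrays.

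Genes of the wider pathway on the arrays labelled Srf are also given as a description, since this contrast chose the set, and nothing is read from their shares beside the 5.54% of all probes. Of 37 other interferon-stimulated genes with a probe, 8 (21.6%) passed the threshold, all lower, with the largest differences in Apol9b (-2.12 ± 0.11), Ifi27l2a (-1.89 ± 0.15) and Trim30a (-1.85 ± 0.22). Of 11 other guanylate-binding proteins and immunity-related GTPases, 4 (36.4%) passed, all lower: Gbp9 and Tgtp2 (both -1.34 ± 0.09), Gbp2b (-1.19 ± 0.07) and Irgm2 (-1.07 ± 0.10). Among 14 receptor and JAK-STAT genes only Ifnlr1 (7.14%), the receptor chain for interferon lambda, passed, and it was higher (2.22 ± 0.12). Of 11 interferons and cytokines with a probe, Il6 (9.09%) passed and was at least 1.76-fold higher, its probe not being above background on either EGFP array. The kinase Ikbke (-1.24 ± 0.14) passed among 22 sensing adaptors and kinases (4.55%), and Mr1 (-1.01 ± 0.10), which presents metabolites, among 18 other MHC class I presentation genes (5.56%).

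Markers of other cell types differed in the same contrast. The summed linear level of 13 microglia or macrophage markers, 7 of them well above background on all 12 arrays, was 9.38 to 9.8 on the EGFP arrays and 15.3 to 16.1 on the arrays labelled Srf. The microglial markers C1qa, Cx3cr1, Lyz2, P2ry12 and Tyrobp were not above background on either array labelled Srf. Cd68 (0.87 to 1.99), Csf1r (-0.64 to 0.80), Fcer1g (-3.11 to -2.05) and Itgam (2.67 to 3.22) had higher mean levels there. Aif1 (-3.55 to -4.84), C1qb (-1.91 to -2.25), Adgre1 (-3.63 to -3.86) and Ptprc (-4.11 to -4.40) had lower ones. In all, 4 of the 13 changed, Cd68, Csf1r and Fcer1g upward and Aif1 downward. Of 8 fibroblast or mesenchymal markers, 7 of them above background on all arrays, 3 changed, and the sum was 175 to 176 with EGFP and 101 to 105 on the arrays labelled Srf. Of 8 neuron markers 2 changed (12.8 to 13.7 against 10.1 to 10.8), and of 14 neural progenitor markers 1 (293 to 310 against 270 to 278). No marker of 6 for astrocytes, 5 for endothelium or 7 for the oligodendrocyte lineage changed, and 1 of 9 did for lymphocytes and 1 of 7 for embryonic stem cells. The part of these markers in the result was not tested. In bulk RNA, fewer cells of a type and less RNA per cell cannot be told apart.

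On the Mkl1 arrays 15 genes of the set were lower than with EGFP and 1 was higher. These values share the EGFP arrays with those of the arrays labelled Srf. The EGFP pair agreed least of the 6 groups. Of probes above background on both its arrays, 2.74% were over 2-fold apart, beside 0.50 to 1.54% in the other groups. No gene of the set passed the threshold for a change by limma (0 of 32, with 16 past the adjusted p alone and 22 at an unadjusted p under 0.05), where 2.78% of all 35744 probes did. Without the fold limit, the lower genes were 46.9% of the 32, beside 8.34% of all probes, and the higher gene 3.12%, beside 12.5%. The median difference was -0.37, from -1.04 to 0.50, and that of all 15642 named genes tested was 0.02. The 15 lower genes were kept in 4 (Irf7) to 20 of 21 alternatives each. Of the markers, 4 of 14 for neural progenitors changed as well (summed level 342 to 357, beside 293 to 310 with EGFP) and 3 of 8 for neurons (7.98 to 8.9, beside 12.8 to 13.7). Among the progenitor markers Nes (mean level 3.96 to 5.12), Cd44 and Sox9 read higher and Slc1a3 (1.67 to 0.30), Sox2 and Notch1 lower. For fibroblasts or mesenchyme 3 of 8 changed (104 to 124, beside 175 to 176), Dcn (1.74 to -0.05) and Pdgfrb downward and Thy1 (-3.69 to -0.60) upward. The 1 of 13 for microglia or macrophages was Aif1, which was lower (-3.55 to -5.06), though the sum was not (10.1 to 11.2, beside 9.38 to 9.8). The part of the markers was not tested. Without Mkl1 replicate 1, 8 genes were lower, and without Mkl1 replicate 2, 3 genes. A fit on the compared arrays alone found 0.

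Ifit1 fell to -2.94 and -2.96 on the Mkl1 arrays (-0.84 ± 0.21, limma adjusted p = 0.0267). Isg15 fell to 3.32 and 3.21 (-0.60 ± 0.08, adjusted p = 0.00263 by limma), and its other probe fell by 0.56 on the log2 scale. Ifi44 fell to -1.13 and -0.83 (-0.71 ± 0.17, limma adjusted p = 0.0228). Each of these pairs lay below both EGFP arrays. Other effectors that fell were Ifit3, a partner of Ifit1 (-0.58 ± 0.10), and Oasl2 (-0.56 ± 0.09). Among the sensors Ddx58, which is RIG-I (-0.41 ± 0.07), and Ifih1, which is MDA5 (-0.61 ± 0.13), fell, while Dhx58 differed by -0.34 ± 0.11 and missed the threshold (limma adjusted p = 0.0612). Of the signalling genes Stat2 (-0.60 ± 0.12), Irf7 (-0.56 ± 0.17) and Irf9 (-0.29 ± 0.07) fell.

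Of the GTPases Igtp fell from 2.18 and 2.12 to 1.71 and 1.59 (-0.50 ± 0.06, limma adjusted p = 0.00222). Iigp1 fell on both of its probes, by 0.65 and 0.67 on the log2 scale. The chromosome 3 genes Gbp2, Gbp3 and Gbp7 fell by about the same step, with differences of -0.30, -0.33 and -0.31, each ± 0.08, and the calls were kept in 8, 8 and 6 of 21 alternatives. Gbp4 had levels of -2.14 and -2.22, a difference of -0.37 ± 0.14 that is given as a description only. The brighter probe of Gbp6 differed by -0.63 ± 0.27 (limma adjusted p = 0.137), and its other probe fell by 0.55 on the log2 scale (limma adjusted p = 0.0473). No antigen presentation gene passed the test. Ifitm3 was the gene that rose (0.30 ± 0.09, limma adjusted p = 0.0432), a call that was kept in 7 of 21 alternatives, with adjusted p from 0.00782 to 0.223, and was lost without either Mkl1 array. Of 37 other interferon-stimulated genes 8 (21.6%) were lower and 3 (8.11%) higher, and of 11 other GTPases 2 (18.2%) were lower and none higher, beside 8.34 and 12.5% of all probes. By limma none of either list passed the threshold for a change.

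The 2 hairpins against Actb gave different pictures, although Actb was lowered by both. The hairpin comparisons share the shEGFP arrays, so their values are given side by side. With shActb_1, 0 of 32 genes changed by limma (5 past the adjusted p alone and 13 at an unadjusted p under 0.05), where 1.61% of all 36213 probes did. Without that limit, 2 genes (6.25%) were lower, beside 4.12% of all probes, and 3 (9.38%) were higher, beside 5.3%. The median difference was -0.05, from -1.01 to 0.83, and that of 15821 named genes was 0.02. Both shares were near the background at these counts. Of 14 neural progenitor markers 3 changed, all downward: Fabp7 (mean level -2.96 to -4.23), Slc1a3 (1.67 to 0.37) and Sox2 (1.19 to 0.18). Their list's sum was nonetheless higher (287 to 290, beside 265 to 269 with shEGFP), being carried by the bright Vim (7.85 to 7.95). For fibroblasts or mesenchyme 3 of 8 changed, Dcn and Pdgfrb downward and Thy1 upward (107 to 118, beside 139 to 148). For neurons 2 of 8 changed (9.5 to 10.1, beside 13 to 14.9). The 2 lower genes were lost without shEGFP replicate 2 or without shActb_1 replicate 1, and 1 was left without shActb_1 replicate 2.

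Ifit3 fell from -1.33 and -1.21 to -1.95 and -1.82 with shActb_1 (-0.61 ± 0.10, limma adjusted p = 0.0098). Ifit2 fell from 0.08 and 0.20 to -0.31 and -0.20 (-0.40 ± 0.08, limma adjusted p = 0.0243). The pairs of both genes were apart. The 3 genes that rose were Irf1, an interferon-induced transcription factor (0.36 ± 0.07), Bst2, which tethers budding virus to the cell (0.24 ± 0.06), and Psmb8 (0.83 ± 0.19). These calls were kept in 13, 6 and 8 of 21 alternatives in that order, and no gene was higher without shEGFP replicate 1, without shActb_1 replicate 1 or without its replicate 2. The dimmer probe of Iigp1 changed, from -2.28 and -2.45 to -3.64 and -3.43 (-1.17 ± 0.17, limma adjusted p = 0.0057), while its brighter probe differed by -0.49 ± 0.15 (limma adjusted p = 0.0901). Without shEGFP replicate 1 or without shActb_1 replicate 1 the dimmer probe no longer passed, at -1.09 and -1.07. Gbp2, Gbp3, Gbp4 and Gbp7 differed from shEGFP by -0.21, 0.24, 0.04 and 0.15, and none passed the test.

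With shActb_2, 2 of 32 genes (6.25%) changed, where 6.31% of all 36153 probes did, a share at the background. By the adjusted p, 19 genes (59.4%) were lower, beside 18.6% of all probes, and 1 (3.12%) was higher, beside 21.7%. The median difference was -0.35, from -1.25 to 1.08, and that of 15854 named genes was 0.07. Without shActb_2 replicate 2, the array with the fewest probes above background (59.3%), 11 genes were lower. Each of the 19 lower genes was kept in 9 (Ifitm3) to 20 of 20 alternatives. In the same contrast 3 of 8 fibroblast or mesenchymal markers changed (summed level 84.7 to 88.0, beside 139 to 148 with shEGFP). Dcn (mean level 1.39 to -0.16) and Pdgfrb fell, and Thy1 (-3.10 to -0.20) rose. Of 14 neural progenitor markers 2 changed, Slc1a3 (1.67 to 0.56) downward and Sox9 (-1.39 to -0.37) upward. Their sum (377 to 379, beside 265 to 269) is carried by the bright Vim (7.85 to 8.37). Changed too were 2 of 8 for neurons (8.99 to 9.79, beside 13 to 14.9) and 2 of 13 for microglia or macrophages (10.1 to 10.9, beside 11.2 to 13). The part of these markers with either hairpin was not tested. This comparison cannot be told apart from the slide.

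All 4 guanylate-binding proteins other than Gbp6 were lower with shActb_2 than with shEGFP. Gbp2 fell from 4.43 and 4.41 to 3.60 and 3.55 (-0.85 ± 0.08, limma adjusted p = 0.00036). Gbp4 fell from -1.70 and -1.46 to -2.40 and -2.37 (-0.80 ± 0.14, limma adjusted p = 0.00394). These arrays played no part in the choice of Gbp4. Gbp7 fell from 0.36 and 0.38 to -0.39 and -0.33 (-0.73 ± 0.08), and Gbp3 from 2.89 and 2.93 to 2.23 and 2.27 (-0.66 ± 0.08). In each of the 4 genes the shEGFP and shActb_2 arrays were well apart. The probes of Gbp6 had opposite signs (0.51 ± 0.26 and -0.52 ± 0.16, the second with a limma adjusted p of 0.0339), and no direction is given for this gene.

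Ifi44 changed most among the genes that fell, from 0.20 and 0.32 to -0.90 and -1.07 (-1.25 ± 0.17, limma adjusted p = 0.00124). Oasl2 fell from 0.85 and 0.78 to 0.03 and 0.00 (-0.80 ± 0.10, limma adjusted p = 0.00079). Isg15 fell from 3.71 and 3.70 to 3.16 and 3.07 (-0.59 ± 0.08, limma adjusted p = 0.00129). The pairs of these 3 genes did not overlap. Ifit2 fell by 0.73 and Ifit3 by 0.65 on the log2 scale, and Ifitm3 by 0.27. Ifit1, with a difference of -0.57 ± 0.20, missed the threshold (limma adjusted p = 0.0599). Rsad2 had levels of -0.44 and -1.76 on the shActb_2 arrays, around the shEGFP levels of -1.72 and -1.65, and did not differ beyond that spread.

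Of the sensors, Dhx58 (-0.50 ± 0.11) and Ifih1 (-0.51 ± 0.13) fell with shActb_2. The probes of Ddx58 had opposite signs (0.09 and -0.29). Stat2 (-0.39 ± 0.12), Irf9 (-0.30 ± 0.07) and the brighter probe of Irf1 (-0.26 ± 0.07, the other 0.22 ± 0.34) fell, while Irf7 and Usp18 had differences of 0.08 and 0.04. Iigp1 fell from -0.51 and -0.56 to -1.45 and -1.54 (-0.96 ± 0.15), and Igtp fell by 0.32 on the log2 scale, whereas Irgm1 differed by 0.07 ± 0.06. In the antigen presentation group Psmb9 (-0.52 ± 0.11) and B2m (-0.28 ± 0.06) fell.

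Psmb8 rose from -4.01 and -3.40 to -2.57 and -2.68 (1.08 ± 0.19, limma adjusted p = 0.00389), against the direction of its partner subunit Psmb9. The shEGFP pair was itself spread, and without shEGFP replicate 1 the difference was 0.78 and no longer over 2-fold. Oas1a is uncertain: its dimmer probe was at least 2.65-fold higher with shActb_2, being above background on neither shEGFP array (fitted limma adjusted p = 0.0119), and its brighter probe differed by -0.05 ± 0.46. It belongs to a family of near-identical genes that the probes may not separate.

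**Figure D2:**
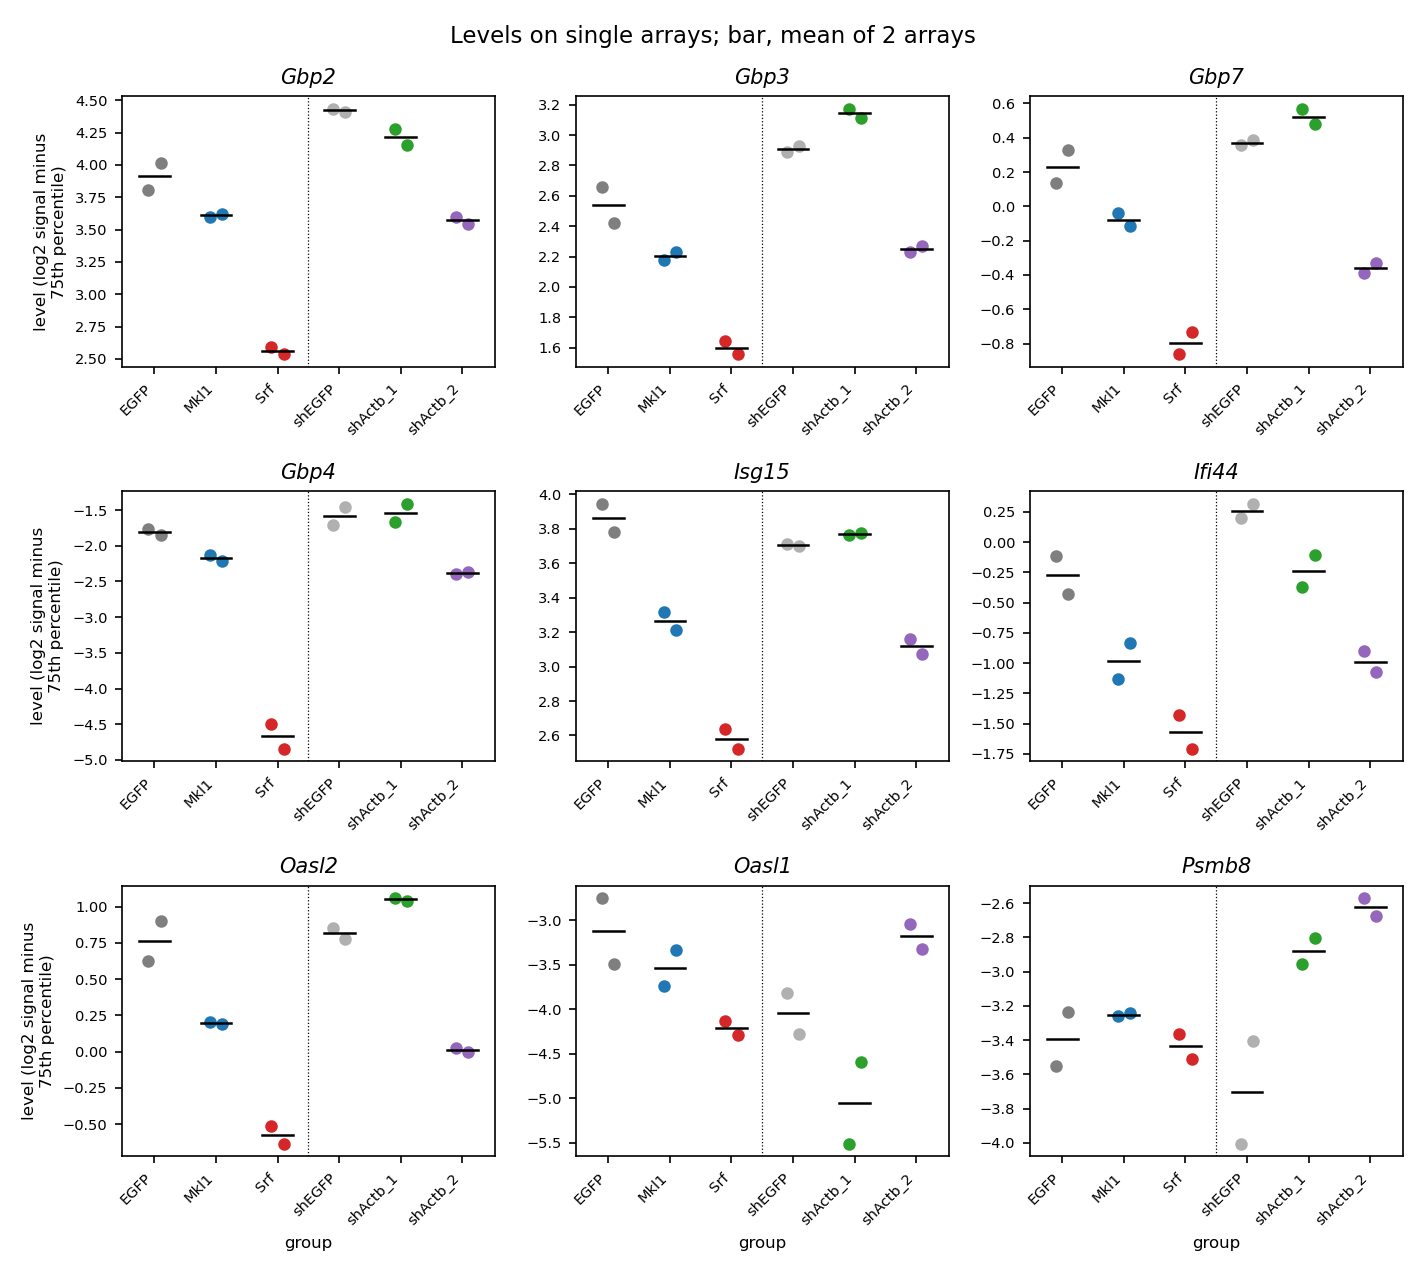
Each panel gives 1 gene's level (log2 signal less the array's 75th percentile) on every array of the 6 groups, with a bar at the mean of 2 arrays; the scale of the vertical axis differs between panels. The retroviral open reading frames lie left of the dotted line and the hairpins right of it. Gbp2, Gbp3, Gbp7, Gbp4, Isg15, Ifi44 and Oasl2 were low on the arrays labelled Srf and on the shActb_2 arrays, whereas Oasl1 and Psmb8 were not low with shActb_2.

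Outside the set, 17 of 37 other interferon-stimulated genes (45.9%) were lower and 4 (10.8%) higher with shActb_2, and the shares of this and the next lists stand beside 18.6% of all probes lower and 21.7% higher. The only one of them to pass the threshold for a change was Slfn8, and it rose (1.49 ± 0.47, limma adjusted p = 0.0377). Of 11 other guanylate-binding proteins and immunity-related GTPases, 9 (81.8%) were lower and none higher. With shActb_1, 2 of these 11 (18.2%) were lower and none higher, beside 4.12 and 5.3% of all probes, and all 11 differences were below 0. Ifgga2 fell most, from -1.62 and -1.54 to -3.77 and -3.57 (-2.10 ± 0.22, limma adjusted p = 0.000533), and with shActb_1 it fell to -2.68 and -2.82 (-1.17 ± 0.22, limma adjusted p = 0.0179). Tgtp2 fell by 1.07 on the log2 scale with shActb_2, and Gbp8 was at least 1.22-fold lower. With shActb_1, 1 of the 37 other interferon-stimulated genes (2.7%) was lower and 5 (13.5%) were higher, beside the same 4.12 and 5.3%, and 1 changed, beside 1.61% of all probes. It was Oas1c (-1.01 ± 0.15). Of 18 other MHC class I presentation genes, 8 (44.4%) were lower and 2 (11.1%) higher with shActb_2, and the transactivator of that pathway, Nlrc5, changed (-1.35 ± 0.25, limma adjusted p = 0.0049). Of 22 sensing adaptors and kinases 10 (45.5%) were higher and 2 (9.09%) lower. None of the 11 interferons and cytokines passed the test with either hairpin against shEGFP by limma, and at an unadjusted p under 0.05 there were 1 with shActb_1 and 0 with shActb_2.

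The difference between the hairpins was tested directly. Between shActb_2 and shActb_1, 2 of 32 genes (6.25%) changed, where 5.03% of all 35408 probes did, a share near the background. Without the fold limit, 15 genes (46.9%) were lower with shActb_2, beside 15.4% of all probes, and 1 (3.12%) was higher, beside 16.7%. Of 8 fibroblast or mesenchymal markers 1 changed, Thy1, which was higher with shActb_2 (mean level -1.47 to -0.20). Their summed level was lower all the same (84.7 to 88.0, beside 107 to 118 with shActb_1). Of 14 neural progenitor markers 1 changed, Fabp7, which was higher (-4.23 to -3.20), with a sum of 377 to 379, beside 287 to 290. The part of the markers was not tested. The median difference was -0.27, from -1.04 to 1.87, against 0.06 over 15645 named genes. Without shActb_1 replicate 1 or without its replicate 2, 9 genes were lower, and without shActb_2 replicate 2, 8 genes. The hairpins cannot be told apart from the slides.

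Gbp3, with 3.17 and 3.11 on the shActb_1 arrays, was lower with shActb_2 by -0.89 ± 0.08 (limma adjusted p = 0.000575). Gbp7 (0.57 and 0.48 with shActb_1) was lower by -0.88 ± 0.08 and Gbp4 (-1.67 and -1.41) by -0.84 ± 0.14. Gbp2 (4.28 and 4.15) was lower by -0.64 ± 0.08. Every shActb_2 array lay below every shActb_1 array in these 4 genes. Isg15, at 3.76 and 3.78 with shActb_1, was lower by -0.65 ± 0.08 and B2m by -0.48 ± 0.06. The brighter probe of Irf1, which had risen with shActb_1, was lower by -0.62 ± 0.07, and its other probe differed by 0.07 ± 0.34. Iigp1 counts as lower on its brighter probe (-0.47 ± 0.15, limma adjusted p = 0.0466), but its other probe was higher (0.64 ± 0.17, limma adjusted p = 0.0227), so this gene has no settled direction between the hairpins. Oasl2 changed, from 1.06 and 1.04 to 0.03 and 0.00 (-1.04 ± 0.09, limma adjusted p = 0.000521). Oasl1, which represses translation of Irf7, went the other way, from -5.52 and -4.59 to -3.04 and -3.32 (1.87 ± 0.36, limma adjusted p = 0.00718). The Oasl1 probe was above background on 1 of the 2 shActb_1 arrays, so its level there is partly a background reading. Ifit3, which fell with each hairpin, differed by -0.04 ± 0.10 between them.

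**Figure D3:**
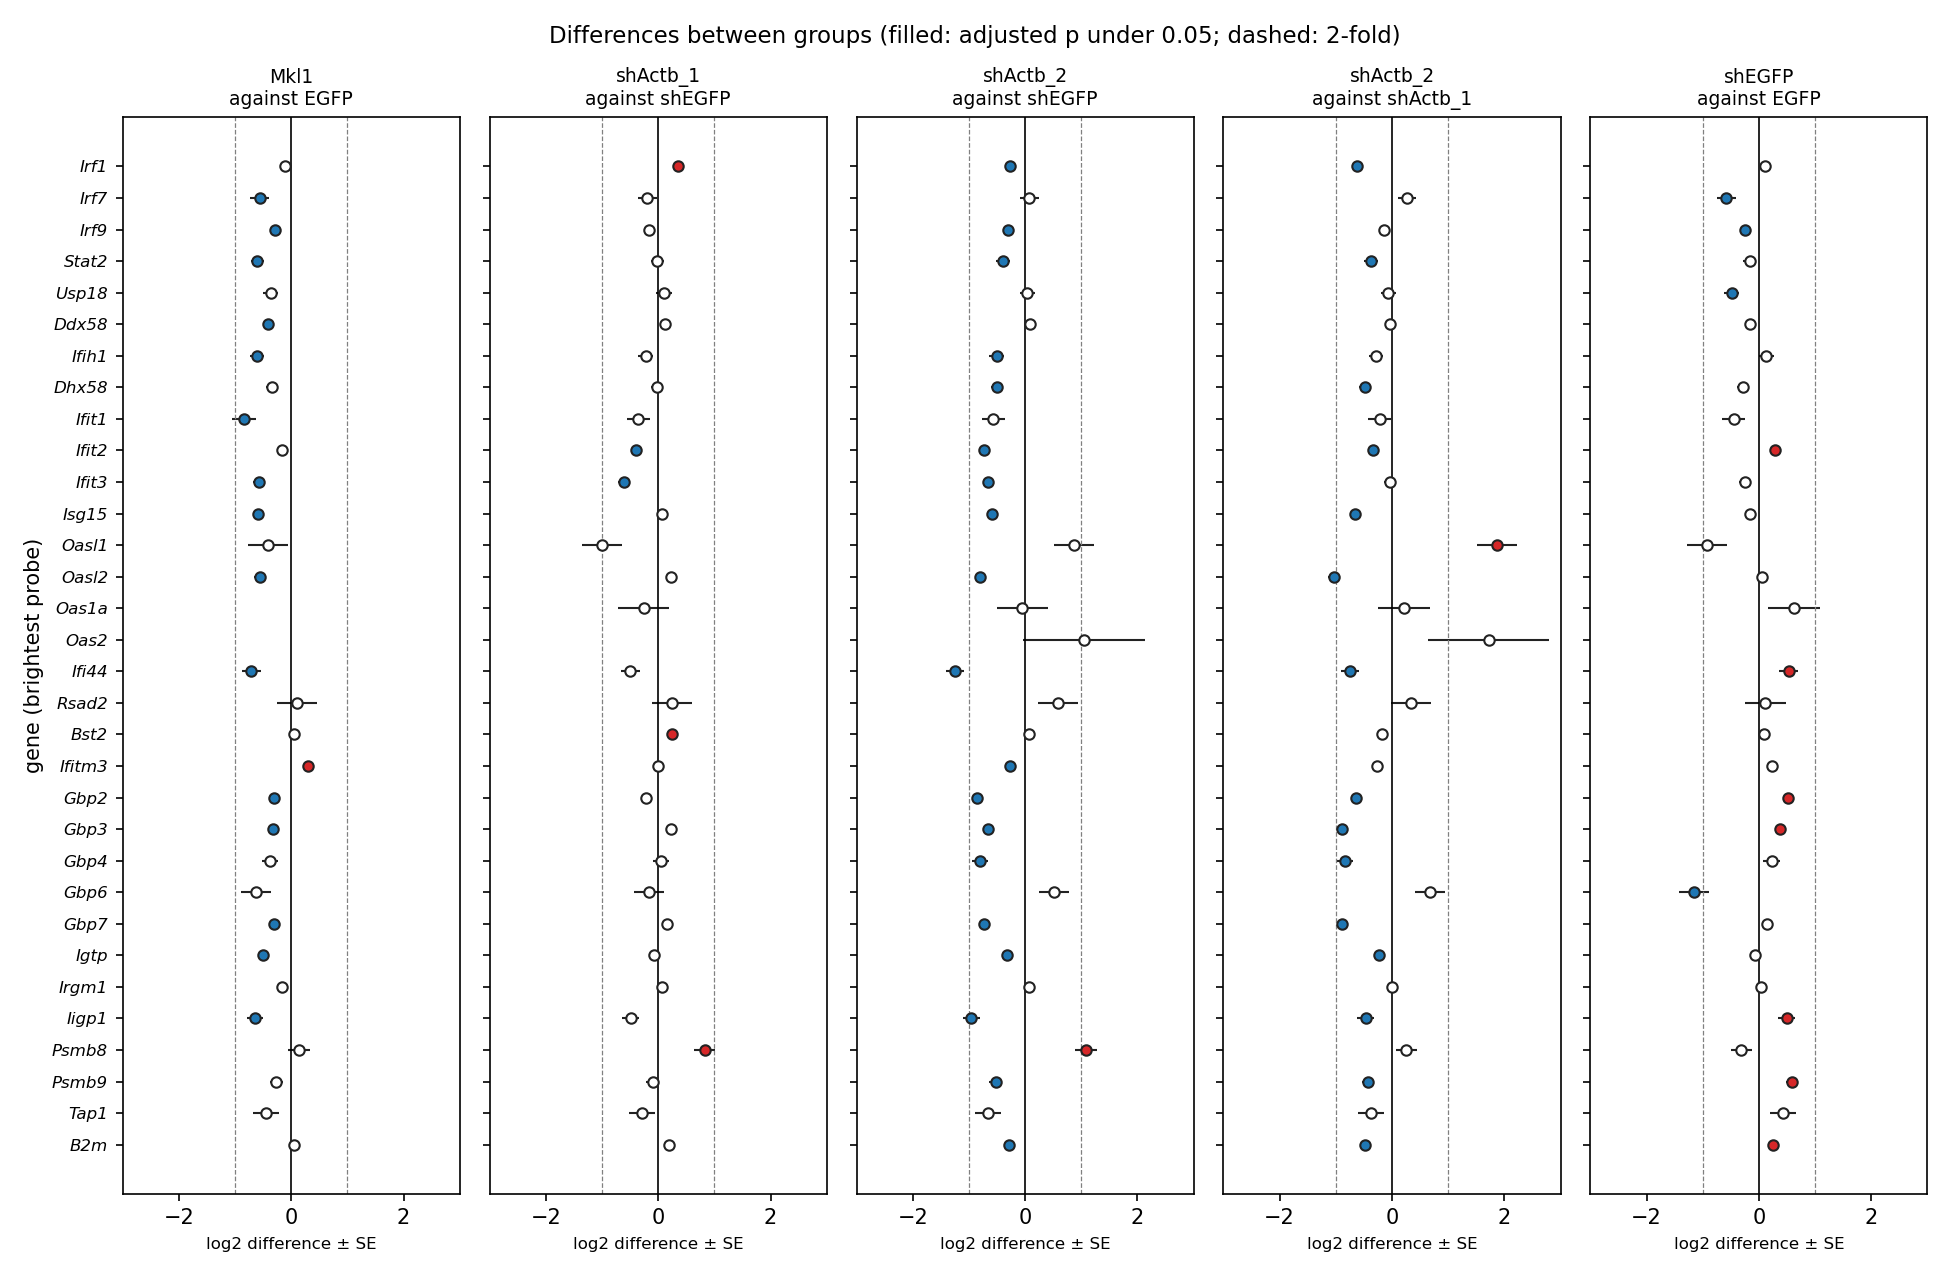
Points give the limma log2 difference of each gene's brighter probe and bars its SE, in the 5 comparisons that were tested, with n = 2 arrays per group. Filled points have an adjusted p under 0.05 (blue lower, red higher), dashed lines mark 2-fold, and a gene without a point was not tested in that comparison. The Mkl1 and shActb_2 columns hold 15 and 19 blue points, the shActb_1 column 2.

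Between the 2 control vectors the set did not move as a block. With shEGFP against EGFP, 1 of 32 genes (3.12%) changed, where 10.2% of all 37648 probes did, and this comparison too cannot be told apart from the slide. By the adjusted p, 4 genes (12.5%) were lower, beside 20.6% of all probes, and 7 (21.9%) were higher, beside 16.9%. The median difference was 0.10, from -1.16 to 0.83, beside -0.08 over 16187 named genes. The lower genes were 1 without EGFP replicate 1, 0 without shEGFP replicate 1 and 2 without shEGFP replicate 2. The higher genes were 3 without shEGFP replicate 1 and 2 without its replicate 2. Of the markers, 2 of 9 for lymphocytes changed (summed level 7.07 to 8.21, beside 4.35 to 4.43 with EGFP), 2 of 7 for the oligodendrocyte lineage (12 to 12.4, beside 15.2 to 29.5), and 1 each for microglia or macrophages (11.2 to 13, beside 9.38 to 9.8), neurons, neural progenitors and embryonic stem cells. The sum of 5 endothelial markers, none of which changed, was 7.51 to 9.33, beside 5.89 to 6.09. The part of these markers was not tested.

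The genes that were higher with shEGFP were Gbp2 (0.51 ± 0.08, limma adjusted p = 0.00386), Gbp3 (0.37 ± 0.08), Psmb9 (0.59 ± 0.11), Ifi44 (0.53 ± 0.17), Iigp1 (0.50 ± 0.15), Ifit2 (0.28 ± 0.08) and B2m (0.25 ± 0.06). Gbp4, described only because the EGFP arrays chose it, differed by 0.22 ± 0.14. The genes that were lower were Irf7 (-0.58 ± 0.17), Usp18 (-0.49 ± 0.14), Irf9 (-0.25 ± 0.07) and Gbp6, whose brighter probe read -0.81 and -1.65 with EGFP and -2.54 and -2.25 with shEGFP (-1.16 ± 0.27, limma adjusted p = 0.0141). The other Gbp6 probe was higher with shEGFP (0.64 ± 0.16), so this gene has no settled direction. Without EGFP replicate 1 the change of the first probe was -0.74 and was lost. Isg15, Oasl2 and Rsad2 differed by -0.16, 0.05 and 0.12 and did not pass. In the wider GTPase list 7 of 11 genes (63.6%) were higher with shEGFP and none lower, beside 16.9 and 20.6% of all probes, with the one change in Ifgga2 (1.83 ± 0.22). Of 37 other interferon-stimulated genes 7 (18.9%) were higher and 8 (21.6%) lower, near the shares of all probes, and 3 (8.11%) changed, beside 10.2%: Epsti1 (at least 2.93-fold lower), Slfn8 (-1.53 ± 0.47) and Phf11b (1.03 ± 0.22). The 1 changed gene of 22 sensing adaptors and kinases (4.55%) was Tlr7, an endosomal RNA sensor (1.39 ± 0.19), and that of 18 MHC class I presentation genes (5.56%) was Nlrc5 (1.04 ± 0.25), both shares below the same background.

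**Figure D4:**
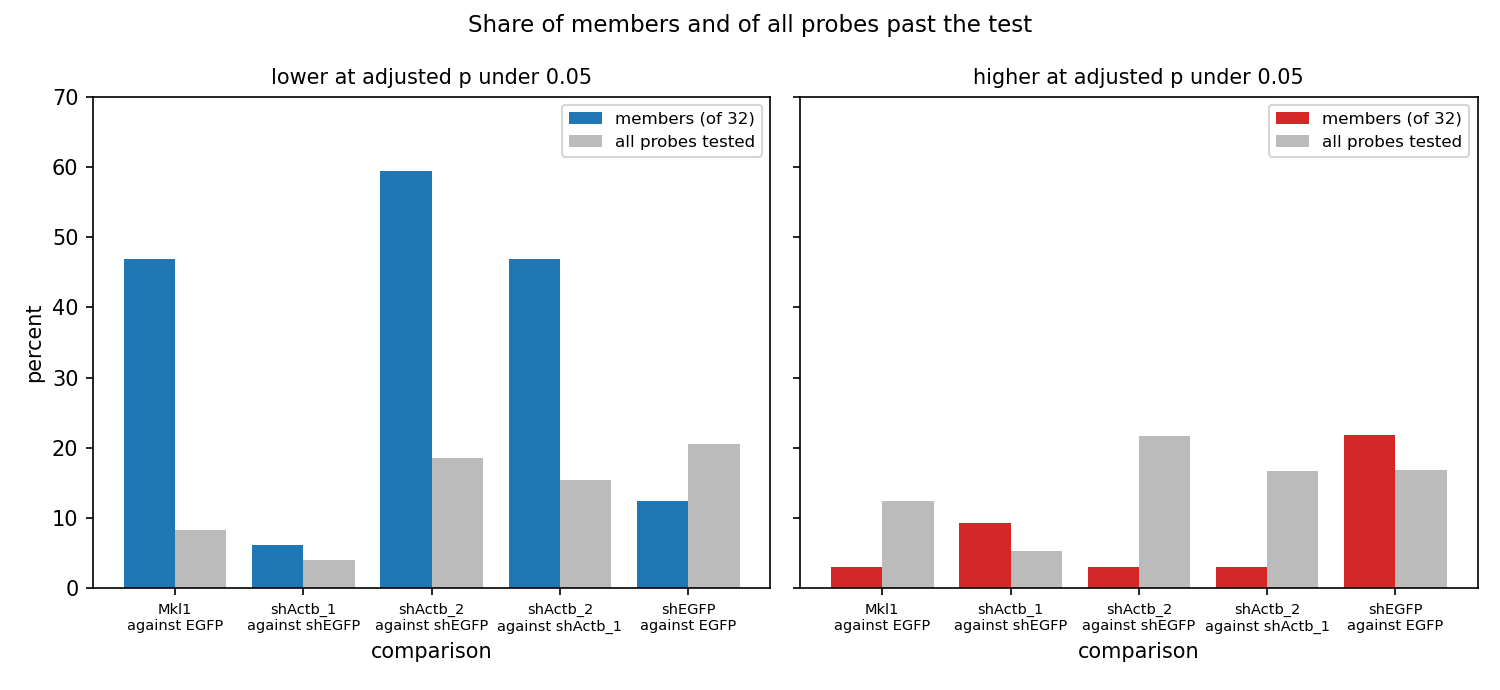
Bars start at 0 and give the percent of the 32 genes (blue or red) and of all probes tested (grey) that were lower (left) or higher (right) at an adjusted p under 0.05 in each comparison. The share of lower genes was 46.9% with Mkl1 and 59.4% with shActb_2, beside 8.34 and 18.6% of all probes, and 6.25% with shActb_1, beside 4.12%.

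Across the treated groups, the genes lower with Mkl1 and those lower with shActb_2, which have no array in common, shared 12 genes. These are 12 of the 15 lower with Mkl1, where 19 of all 32 were lower with shActb_2, and 12 of the 19, where 15 of all 32 were lower with Mkl1. The overlap itself was not tested, and both sets of calls use a spread taken from all 12 arrays, so they are not independent. The shared genes were Gbp2, Gbp3, Gbp7, Ifi44, Ifih1, Ifit3, Igtp, Iigp1, Irf9, Isg15, Oasl2 and Stat2. Ifit3 was lower in all 3 comparisons outside the arrays labelled Srf. The 10 genes whose brighter probe was lower in none of these 3 comparisons were Bst2, Gbp6, Irgm1, Oas1a, Oas2, Oasl1, Psmb8, Rsad2, Tap1 and Usp18. The other Gbp6 probe was lower with Mkl1 and with shActb_2, the brighter Oas1a probe was above background on the 6 hairpin arrays alone, and Oas2 was above background on 3 arrays. Of the 12 shared genes, 11 had a promoter window, and 8 of these windows held the ISRE core (Gbp2, Gbp3, Gbp7, Ifih1, Ifit3, Igtp, Isg15 and Stat2), a description over genes chosen from the same arrays.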

How the data were processed

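RNA of 12 samples was hybridised in 1 colour (Cy3) to Agilent mouse arrays by the authors. The deposited scanner files, from Agilent Feature Extraction 11.5.1.1 per the file headers, give a background-corrected processed signal intensity per spot, and a call of whether it is well above background. The authors' methods name percentile shift and exclusion of low signals. Their deposited log2 table equals log2 of the scanner signal less a constant per array (every probe within 0.01) and served as an alternative.

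Here, spots of a probe were averaged and log2 intensity less the array's 75th percentile (843.0 to 1149.5 in signal units) gave the level. Of 55681 probes, 50.33% were named by RefSeq accession. limma 3.58.1 (R 4.3.3) was fitted to all 12 arrays with 1 mean per group. The fit was tested on simulated data. The small number of arrays limits the precision.

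The members, the gene lists and the tests were chosen with earlier results of these data known. All 34 genes were named with every probe, and of the wider lists up to 3 of the largest changes in each direction. Alternatives were another background correction, normalization, filter, set of arrays, replicate block, variance model, threshold or probe, and leaving out each array.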

Additional observations from a re-analysis of the deposited data

Results flagged for a closer look

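Effects of the 2 Actb hairpins differed by the direct test, past both the adjusted p and the 2-fold limit, in 3 of the 40 probes of the set, where 5.03% of all probes tested did so. By the brighter probe 2 of 32 genes (6.25%) did. These counts are near the background share, and nothing is read from them. Oasl2 was lower with shActb_2 than with shActb_1 by -1.04 ± 0.09 on the log2 scale (limma adjusted p = 0.000521), Oasl1 was higher by 1.87 ± 0.36 (limma adjusted p = 0.00718), and the dimmer probe of Oas1a was higher by 1.97 ± 0.51 (limma adjusted p = 0.0234). These 3 genes belong to the family of 2-5A synthetases and their relatives. Oasl2 was well above background on all 12 arrays, whereas Oasl1 and the Oas1a probe were above background on 1 of the 2 shActb_1 arrays. With normexp background correction the differences were -0.96, 0.93 and 0.45, none past both thresholds. The brighter Oas1a probe differed by 0.21 ± 0.46. The hairpins lay on different slides and cannot be told apart from them.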

How the results depend on the processing

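Over the 156 pairs of gene and comparison tested outside the Srf contrast, 68 passed the adjusted p. On the same probe, 0 of these turned sign under any alternative fit. The other probe did read the opposite way for Gbp6 in shEGFP against EGFP (-1.16 and 0.64) and for Iigp1 between the hairpins (-0.47 and 0.64). It also did for Irf1 with shActb_2 (-0.26 and 0.22) and between the hairpins (-0.62 and 0.07). Numbers of genes that changed by both thresholds moved as follows. By the adjusted p alone they were 23 for the Srf contrast (8 with both thresholds, both counts a description because the choice of members used this contrast, where 25.5% of all probes passed the adjusted p), 16 with Mkl1 (0), 5 with shActb_1 (0), 20 with shActb_2 (2), 11 for shEGFP against EGFP (1) and 16 between the hairpins (2). Normexp background correction gave 1 with shActb_2 and 0 between the hairpins, and quantile normalization gave 4 with shActb_2. The compared arrays alone gave 0 for shEGFP against EGFP, the stricter filter 1 between the hairpins, and the probe with the smallest p 1 with shActb_1 (Iigp1). Leaving out 1 array gave 7 to 9 (Srf), 0 to 2 (Mkl1, 2 without EGFP replicate 2), 0 to 1 (shActb_1, 1 without shEGFP replicate 1 or 2), 1 to 3 (shActb_2, 1 without shEGFP replicate 1), 0 to 2 (shEGFP against EGFP, 0 without EGFP replicate 1 and 2 without EGFP replicate 2) and 2 to 3 (hairpins).

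Numbers of genes lower by the adjusted p moved more. For Mkl1, 15 became 7 without a filter, 0 with the compared arrays only and 3 with the arrays of 1 slide. For shActb_1, 2 became 1, 0 and 0 under these, and 4 with a variance trend. For shEGFP against EGFP, 4 became 9 with normexp, 7 with quantile normalization and 0 with the compared arrays. Leaving out 1 array gave 3 to 13, 0 to 3 and 0 to 5 for these, 11 to 21 for shActb_2 and 8 to 18 between the hairpins. Numbers of genes higher by the adjusted p ranged over all alternatives from 0 to 1 with Mkl1 (1 as reported), 0 to 5 with shActb_1 (3), 1 to 2 with shActb_2 (1), 0 to 9 for shEGFP against EGFP (7) and 0 to 3 between the hairpins (1). The cause was not tested.

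Over all changed probes, the share that was higher moved with scaling from 46.4 to 64.1% (Mkl1, quantile), from 30.2 to 40.6% (shActb_1, normexp), from 27.5 to 41.8 and 45.8% (shActb_2, normexp and quantile) and from 35.7 to 48.0% (hairpins, quantile). By the adjusted p it moved from 45.1 to 31.8% (shEGFP against EGFP, normexp).

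With the replicate block, 8, 0, 0, 2, 1 and 2 genes changed in the comparisons in the order above, and 14 were lower with Mkl1. Deviations of same-numbered arrays correlated at -0.002 to 0.261, not all over 0.1, so the numbers were not taken as pairs. Dim probes limit Oas1a and Oas2 most.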
